A study of Mus musculus with 4 samples.

Results

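Fn1, Spp1, Thbs1, Tgfbi, Vcan, F13a1, F10 and Sdc4 encode matrix proteins, clotting factors and a cell surface co-receptor of the provisional wound matrix. Their levels were followed across the immune cells, genotypes and days of healing skin wounds. The genes are 8 of the 31053 in the deposited tables, were chosen by symbol, and each matched 1 row. The wounds were 3 mm excisions in the dorsal skin of male mice 8 weeks of age. Angptl4+/+ wounds came from wild-type C57BL/6J mice of a commercial supplier. Angptl4-/- wounds came from a repository line that lacks Angptl4, a secreted matricellular protein, and no source names a cell type to which the deletion is limited. The labels give the strain as C57BL6/J for every sample, but the 2 genotypes came from separate colonies, so that genotype and colony cannot be told apart. Live CD45+ leukocytes were sorted at 1 and 5 days postwounding (dpw) and made into 1 droplet library (10x 3' V3) per genotype and day, 4 in all. How many mice went into each library is not given in the sources used here.

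With 1 library per group there was no replicate and no test between groups. Every 95% interval below covers the error of counting molecules and not the spread between animals, and ratios past 2-fold are named as the large ones. The libraries held 4738 to 5346 cells after filtering and 26981596 to 32962595 unique molecular identifiers (UMIs, each a counted RNA molecule) before it. Angptl4 itself had 47 and 78 UMIs in the Angptl4+/+ libraries at 1 and 5 dpw and 0 in each Angptl4-/- library. Pairs of libraries shared 4 to 15 cell barcodes. Levels are CPM, a gene's UMIs per 1000000 UMIs summed over a class of cells in a library. They are not scaled by gene length, and levels of different genes were not ranked.

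The provisional matrix is the temporary scaffold that fills a wound before collagen is laid down. Fibrin and plasma fibronectin form it as blood clots, and cells that enter the wound add fibronectin, osteopontin, thrombospondin and versican. Leukocytes and fibroblasts hold on to it through integrins and syndecans, clotting enzymes build and cross-link the fibrin, and plasmin dissolves it.

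Coordinates are in GRCm38, the build of the files, and each of the genes is annotated as protein coding. Fn1 (fibronectin, an adhesive scaffold glycoprotein) lies at chr1:71585520-71653200 (minus strand). Of the matricellular genes, Spp1 (osteopontin, an integrin ligand and cytokine) lies at chr5:104435118-104441050 (plus strand), Thbs1 (thrombospondin-1, a ligand of CD36 and CD47) at chr2:118111876-118127133 (plus strand) and Tgfbi (an adhesive protein induced by TGF-β) at chr13:56609523-56639562 (plus strand). Of the proteoglycan genes, Vcan (versican, which binds hyaluronan) lies at chr13:89655312-89742509 (minus strand) and Sdc4 (syndecan-4, a cell surface co-receptor for fibronectin) at chr2:164424247-164443887 (minus strand). Of the clotting genes, F13a1 (the catalytic subunit of factor XIII, which cross-links fibrin) lies at chr13:36867178-37050244 (minus strand) and F10 (factor X, the protease that activates prothrombin) at chr8:13037308-13056676 (plus strand).

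Promoter sequence, the 250 bases before a RefSeq start site (GRCm38.p6), was at hand for 6 of the genes and not for Fn1 and Thbs1. Those of Spp1, Vcan and Sdc4 are printed because these genes differed most plainly in the cells that expressed them: Spp1 in neutrophil-like and macrophage-like cells, Vcan in monocyte-like and macrophage-like cells, and Sdc4 in macrophage-like but hardly in monocyte-like cells. Capitals mark every match to 7 motifs on either strand.
Spp1, chr5:104434861-104435110, plus strand: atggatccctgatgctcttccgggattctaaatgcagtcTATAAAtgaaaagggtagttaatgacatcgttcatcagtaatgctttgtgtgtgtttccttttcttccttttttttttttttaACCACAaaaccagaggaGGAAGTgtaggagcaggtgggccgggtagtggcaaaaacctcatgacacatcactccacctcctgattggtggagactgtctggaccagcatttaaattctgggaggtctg
Vcan, chr13:89742513-89742762, minus strand: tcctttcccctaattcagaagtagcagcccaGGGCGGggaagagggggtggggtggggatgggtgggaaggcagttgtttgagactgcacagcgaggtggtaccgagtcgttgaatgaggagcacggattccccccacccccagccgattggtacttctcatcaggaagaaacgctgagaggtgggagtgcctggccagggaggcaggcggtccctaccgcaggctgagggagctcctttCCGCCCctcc
Sdc4, chr2:164443189-164443438, minus strand: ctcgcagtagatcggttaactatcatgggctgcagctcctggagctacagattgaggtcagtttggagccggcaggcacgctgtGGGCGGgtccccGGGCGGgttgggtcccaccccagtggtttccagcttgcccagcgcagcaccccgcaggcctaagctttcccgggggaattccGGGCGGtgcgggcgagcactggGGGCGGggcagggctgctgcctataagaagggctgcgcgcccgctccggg
Each motif is given here with the share of all 32851 windows of this length that held it: the AP-1 site TGANTCA with 6.75%, the GC box GGGCGG with 32.7%, the ETS site GGAAGT with 19.7%, the E-box CACGTG with 6.02%, the hypoxia element core ACGTG, which the E-box contains, with 16.6%, the RUNX site TGTGGT with 14.0% and the TATA box TATAAA with 12.4%. Counted back from the start, the printed Spp1 window held a TATA box from base 211, a RUNX site on the reverse strand from base 128 and an ETS site from base 111. The window of another Spp1 start, chr5:104435942-104436191, held 0 matches and is not printed. Vcan held a GC box from base 219 and another, on the reverse strand, from base 10. Sdc4 held GC boxes from bases 166, 154, 72 and 50. Its window lies inside the gene coordinates given above, so that RefSeq and those coordinates place the Sdc4 start differently. A match is a run of letters, and binding of a factor was not measured.

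Cells were put into classes by marker lists, and the 8 genes were kept out of the clustering. There were 1151 and 1546 cells in Angptl4+/+ wounds on days 1 and 5 and 846 and 644 in Angptl4-/- wounds that were macrophage-like, or 21.5%, 31.3%, 17.6% and 13.6% of cells. They formed a cluster of 2686 cells led by Arg1 and Mmp12 and another of 1501 cells led by Ms4a7, Ccl12 and C1qa. Fn1 was among the leading genes of the first of these clusters. The 11 macrophage markers, whose list named the class, summed to 10711 to 17018 CPM in macrophage-like cells. In neutrophil-like cells they summed to 234 to 443 CPM, and all 11 had UMIs in both classes in each library. Neutrophil-like cells were the most numerous class, with 2705 to 3891 cells per library, and monocyte-like cells, led by Chil3, Prtn3 and Ace, numbered 128 to 154.

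The genes fell into 4 patterns over these classes. Fn1, Vcan and F13a1 were high in monocyte-like and macrophage-like cells. Sdc4 was high in macrophage-like and dendritic cell-like cells. Tgfbi was found in all myeloid classes, with its highest level in macrophage-like cells. Spp1, Thbs1 and, at a lower level, F10 were shared by macrophage-like and neutrophil-like cells. F10 was found in monocyte-like cells as well, at 109 to 291 CPM.

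Between macrophage-like and neutrophil-like cells of the same library, Fn1, Tgfbi, Vcan, F13a1, F10 and Sdc4, or 6 of the 8 genes, were past 2-fold higher in macrophage-like cells at 1 dpw, where 59.4% of all tested genes were in Angptl4+/+ and 59.4% in Angptl4-/- wounds. On day 5 the count was 5 of 8, without F10, against 48.7% and 47.1% of all genes. In the lower direction the count in Angptl4+/+ wounds was 0 of 8 at 1 dpw, against 9.59%, and 2 of 8, Spp1 and Thbs1, at 5 dpw, against 12.2%. In Angptl4-/- wounds it was 1 of 8, Spp1, at 1 dpw, against 10.2%, and Spp1 and Thbs1 again at 5 dpw, against 14.3%. So many genes were higher in macrophage-like cells that the counts alone do not set these genes apart; the median gene was higher by 1.43, 0.95, 1.45 and 0.87 on the log2 scale in Angptl4+/+ wounds on days 1 and 5 and Angptl4-/- wounds on days 1 and 5.

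**Figure D1:**
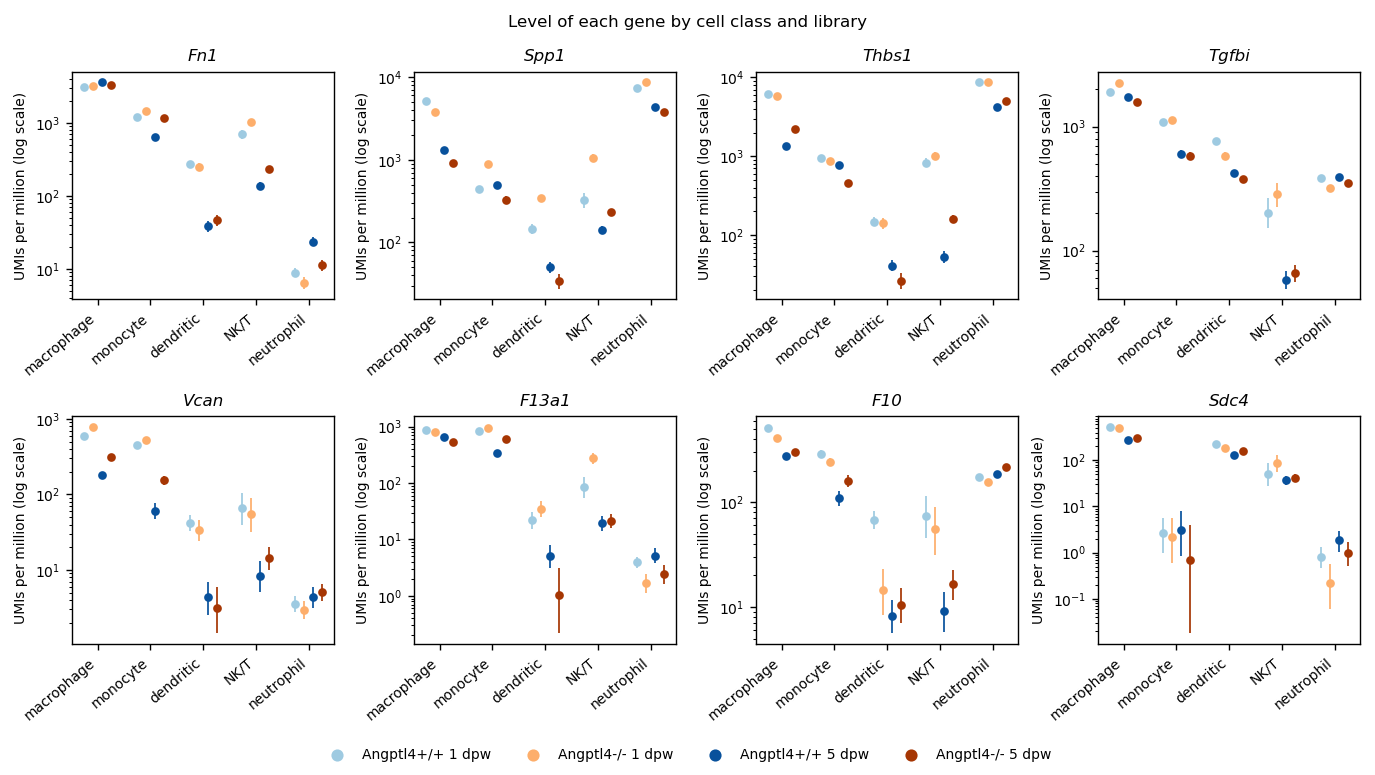
Level of each gene (CPM, log scale) by cell class, with 1 point per library and bars for 95% Poisson intervals. Spp1 and Thbs1 had their highest points in neutrophil-like cells, Fn1, Vcan and F13a1 were near the bottom of their panels there, and Sdc4 was at 0.706 to 3.16 CPM in monocyte-like cells.

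Fn1 in macrophage-like cells of Angptl4+/+ wounds stood at 3116 (3079.7 to 3153) CPM on day 1 and 3572 (3539.6 to 3605) CPM on day 5. In Angptl4-/- wounds it stood at 3188 (3142 to 3234) and 3276 (3235 to 3316) CPM. The 4 libraries lay close together, with a log2 ratio of 5 over 1 dpw of 0.20 (0.18 to 0.22) for Angptl4+/+ and 0.04 (0.01 to 0.07) for Angptl4-/- wounds, and the sign of both turned, to -0.14 and -0.46, when each cell had the same weight. Macrophage-like cells held 84.7% to 96.9% of the Fn1 UMIs of a library, and the neutrophil-like level was 6.44 to 23.5 CPM.

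At least 1 Fn1 UMI was seen in 87.3%, 87.7%, 85.8% and 84.8% of macrophage-like cells in Angptl4+/+ wounds on days 1 and 5 and Angptl4-/- wounds on days 1 and 5. NK cell/T cell-like cells, which should lack the gene, had one in 14.3% (4.81 to 30.3), 9.25% (5.82 to 13.8), 11.1% (3.11 to 26.1) and 6.82% (3.87 to 11) of cells in the same order. Median depths were 6842, 8348, 5832.5 and 11524.5 UMIs for macrophage-like cells and 6245, 7147, 6360 and 6998 UMIs for NK cell/T cell-like cells. The macrophage-like share was far above this background in each library. In cells thinned to 1000 UMIs the shares were 64.3 to 73.8% in macrophage-like, 32.8 to 75.8% in monocyte-like, 2.20 to 8.57% among NK cell/T cell-like and 0.680 to 2.04% in neutrophil-like cells.

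Monocyte-like cells had 1204 and 631 CPM of Fn1 in Angptl4+/+ wounds on days 1 and 5 and 1442 and 1175 in Angptl4-/- wounds. Macrophage-like cells were above them in each library, by 1.37, 2.50, 1.15 and 1.48 on the log2 scale. Over all cells of an Angptl4+/+ library Fn1 stood at 957 and 1630.0 CPM on days 1 and 5, and over all cells of an Angptl4-/- library at 796 and 1026 CPM. In such values over all cells, fewer cells of a type and less RNA per cell cannot be told apart.

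Spp1 was lower at 5 than at 1 dpw in both classes that held most of it. In macrophage-like cells it stood at 5118 (5071 to 5165) and 1296 (1276 to 1315) CPM in Angptl4+/+ wounds on days 1 and 5, and at 3775 (3725 to 3825) and 926 (904 to 947) in Angptl4-/- wounds. Both 5 dpw libraries lay below both 1 dpw libraries, with log2 ratios of -1.98 (-2.01 to -1.96) and -2.03 (-2.07 to -1.99). An Spp1 UMI was seen in 78.5%, 39.5%, 75.9% and 41.3% of macrophage-like cells in Angptl4+/+ wounds on days 1 and 5 and Angptl4-/- wounds on days 1 and 5.

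Neutrophil-like cells held 75.6% and 67.7% of the Spp1 UMIs of the Angptl4+/+ libraries at 1 and 5 dpw and 86.8% and 84.9% of those of the Angptl4-/- libraries, so that most Spp1 molecules of the sorted leukocytes were in this class. Their level was 7418 (7379.6 to 7456) and 4368 (4324 to 4412) CPM in Angptl4+/+ wounds and 8684 (8641 to 8727) and 3768 (3734 to 3802) in Angptl4-/- wounds. The log2 day ratios were -0.76 (-0.78 to -0.75) and -1.20 (-1.22 to -1.19), again lower at 5 dpw. Macrophage-like over neutrophil-like cells, the log2 ratios were -0.54, -1.75, -1.20 and -2.03 in Angptl4+/+ wounds on days 1 and 5 and Angptl4-/- wounds on days 1 and 5.

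In monocyte-like cells an Spp1 UMI was about as common as in lymphoid cells. Monocyte-like cells had 439, 490.4, 900.3 and 329 CPM and a UMI in 50%, 14.5%, 43.0% and 15.7% of cells, at median depths of 14668.5, 9535, 13786 and 10537 UMIs. NK cell/T cell-like cells, which were less deeply sequenced, had 325, 142, 1049 and 236 CPM and a UMI in 42.9%, 15.4%, 30.6% and 16.8% of cells. In cells thinned to 1000 UMIs the shares were 5.11 to 11% of monocyte-like and 5.73 to 16.7% of NK cell/T cell-like cells, against 20.8 to 60.7% in macrophage-like cells.

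Thbs1, like Spp1, was held mostly by neutrophil-like and macrophage-like cells. Its monocyte-like level was 939 and 766 CPM in Angptl4+/+ wounds on days 1 and 5, and 871 and 464 in Angptl4-/- wounds. Its macrophage-like level was 6103 (6052 to 6154) and 1339 (1319.6 to 1359) CPM in Angptl4+/+ wounds on days 1 and 5, and 5754 (5692 to 5816) and 2236 (2203 to 2269.9) in Angptl4-/- wounds. The 1 dpw libraries lay close together, and at 5 dpw the Angptl4+/+ library was the lowest of the 4. The log2 day ratios were -2.19 (-2.21 to -2.16) for Angptl4+/+ and -1.36 (-1.39 to -1.34) for Angptl4-/- wounds.

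In neutrophil-like cells Thbs1 stood at 8676 and 4250.4 CPM in Angptl4+/+ wounds on days 1 and 5 and at 8704 and 4967 in Angptl4-/- wounds. This class held 66.3% to 81.8% of its UMIs. The log2 ratios of macrophage-like over neutrophil-like cells were -0.51, -1.67, -0.60 and -1.15 in Angptl4+/+ wounds on days 1 and 5 and Angptl4-/- wounds on days 1 and 5. A Thbs1 UMI was seen in 94.0%, 62.1%, 93.5% and 71.6% of neutrophil-like cells in that order. Dendritic cell-like cells, with 13160 to 14396 UMIs at the median, had one in 39.0%, 8.84%, 32.9% and 11.3% of cells, well under the neutrophil-like share. Neutrophil-like cells had 4683, 3219, 4637 and 3394 UMIs at the median, so that the class with the lower share was the more deeply sequenced one.

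**Figure D2:**
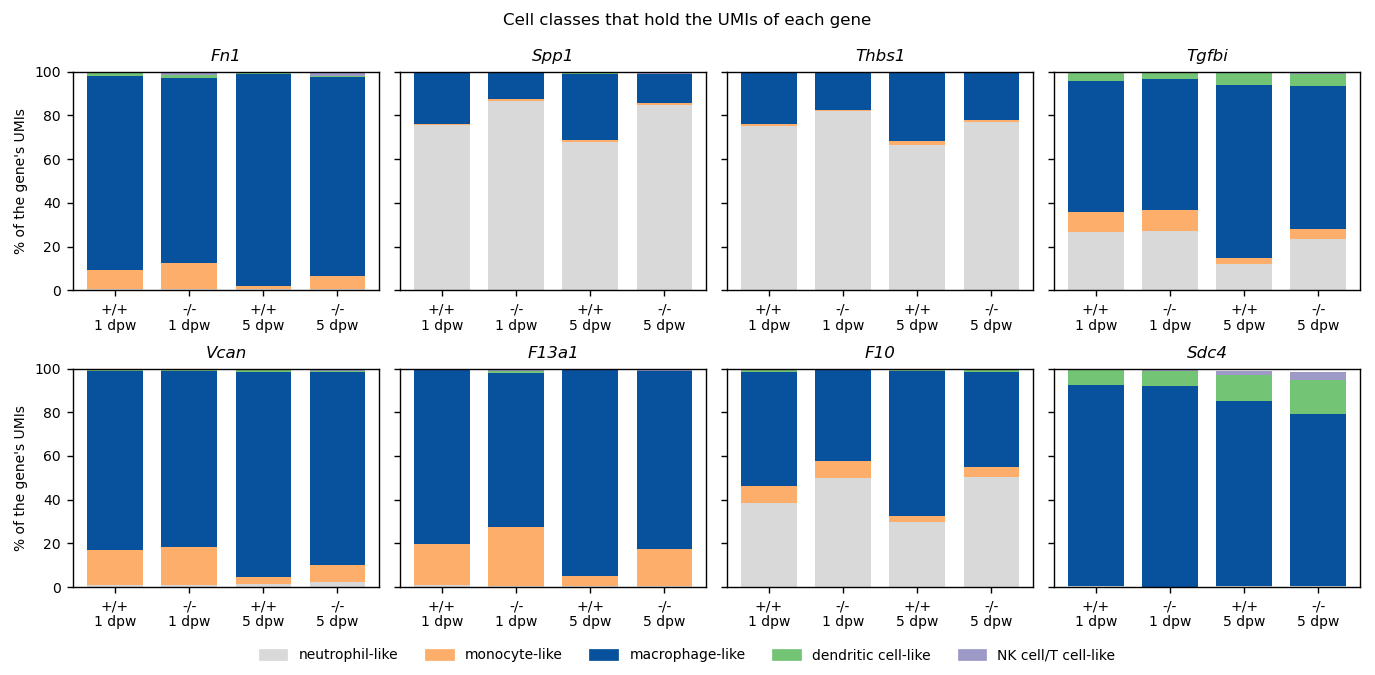
Percent of each gene's UMIs in a library that lay in each cell class, as stacked bars with 1 bar per library. Neutrophil-like cells held 67.7% to 86.8% of Spp1 and 66.3% to 81.8% of Thbs1 UMIs, and macrophage-like cells 84.7% to 96.9% of Fn1 and 80.6% to 94.0% of Vcan UMIs.

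The neutrophil-like class was made up of 6 clusters, over which Spp1 was uneven. In all libraries together it was highest, at 15609 CPM, in a cluster of 2627 cells led by Csf3, Rps6ka2 and Lsmem1, and lowest, at 1887 CPM, in a cluster of 2662 cells led by Pglyrp1, Ngp and Ly6g. In the Csf3 cluster it stood at 19668 and 9165 CPM in Angptl4+/+ wounds on days 1 and 5 and at 21286 and 8468 in Angptl4-/- wounds, which was lower at 5 dpw in both genotypes. The 11 macrophage markers summed to 413 CPM in that cluster and the 10 neutrophil markers to 109348, against 11906 and 7998 CPM in the Arg1 macrophage-like cluster. Thbs1 was highest in each library in the cluster led by Rab44, Igf1r and Fpr1, at 9974 CPM in all libraries together. It was lowest in the cluster led by Csf1, Acot1 and Egr3 in 3 libraries and in the Pglyrp1 cluster in the Angptl4+/+ library at 5 dpw, with 1678 against 2119 CPM.

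F10 and Tgfbi took different places among the neutrophil-like clusters. In all libraries together F10 stood at 446 and 461 CPM in the Csf3 and Csf1 clusters, near its 480.3 CPM in the Arg1 macrophage-like cluster, and at 12.9 CPM in the Pglyrp1 cluster. Tgfbi had the opposite order, 73.3 CPM in the Csf3 and 615 CPM in the Pglyrp1 cluster. Without integration of the libraries a cluster of 2830 cells led by Csf1, Rps6ka2 and Syne1 received no class name. Of these genes Rps6ka2 also led the Csf3 cluster. The F10 level of the neutrophil-like class was lower without these cells. Macrophage-like over neutrophil-like cells, the F10 log2 ratios were then 2.38 and 1.96 in Angptl4+/+ wounds on days 1 and 5. In Angptl4-/- wounds they were 2.34 and 2.16.

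**Figure D3:**
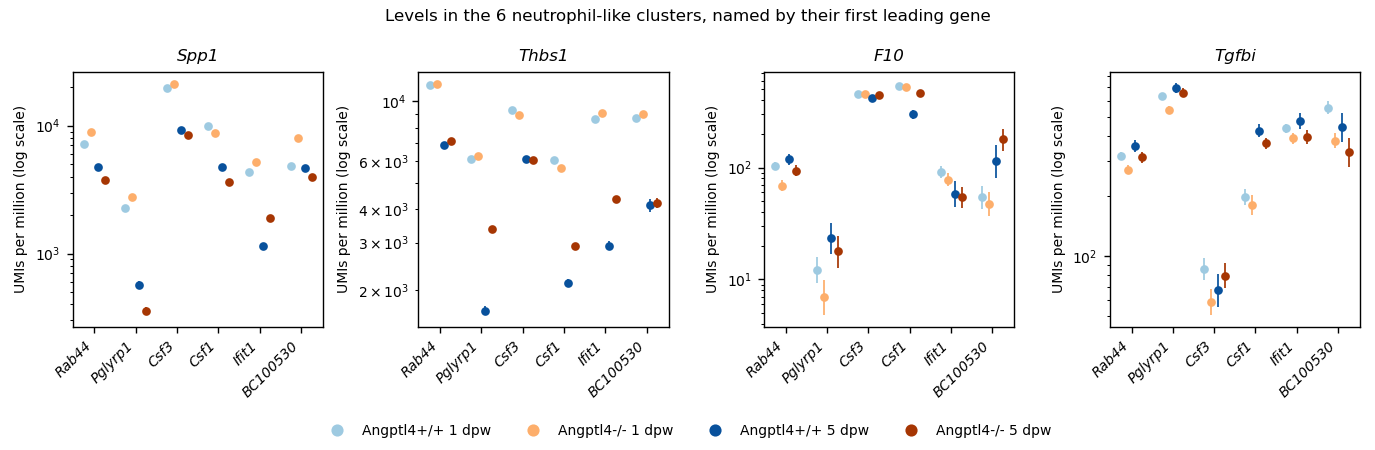
Levels of Spp1, Thbs1, F10 and Tgfbi (CPM, log scale) in the 6 neutrophil-like clusters, each named by its first leading gene, with 1 point per library and 95% Poisson intervals. Spp1 peaked in the Csf3 cluster, F10 in the Csf3 and Csf1 clusters, and Tgfbi was lowest in the Csf3 cluster.

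Neutrophil RNA in macrophage-like cells moved with the day, and its values stand here beside those of Spp1 and Thbs1. All 10 neutrophil markers had UMIs in macrophage-like cells of each library, and they summed to 12058 and 1984 CPM in Angptl4+/+ wounds on days 1 and 5 and 10962 and 2149.9 CPM in Angptl4-/- wounds. This was 5.99%, 1.86%, 5.03% and 1.98% of their level in neutrophil-like cells. The same percent of the neutrophil-like Spp1 level came to 444, 81.2, 437 and 74.7 CPM, and of the Thbs1 level to 519.6, 79.0, 438 and 98.5 CPM. With these amounts taken off, the log2 day ratios of Spp1 were -1.94 in Angptl4+/+ and -1.97 in Angptl4-/- wounds and those of Thbs1 -2.15 and -1.31. Single neutrophil markers gave percents from 4.97 to 24.4%, 1.46 to 6.67%, 4.16 to 23.0% and 1.64 to 7.19% in the same order. With the highest of them in each library taken off, the day ratios were -1.72 and -1.44 for Spp1 and -1.92 and -0.999 for Thbs1, the last just short of 2-fold. These amounts rest on the level of the whole neutrophil-like class, while Spp1 ranged from 1887 to 15609 CPM over its clusters. Which neutrophil-like cells the RNA came from is not known, and its part in the Spp1 and Thbs1 values was not tested. Platelets carry thrombospondin-1 too. Of the 7 platelet markers 4 had UMIs in macrophage-like cells of 3 libraries, and 5 in the Angptl4-/- library at 1 dpw. They summed to 2665, 877, 2024 and 1583 CPM, with Gp9 and Gp1bb at 0 in each library. The same markers summed to 5.84 to 12.3 CPM in neutrophil-like, 2.74 to 8.48 in monocyte-like and 5.15 to 97.5 in dendritic cell-like cells. The sum in macrophage-like cells was lower at 5 dpw in both genotypes, as Thbs1 was. Whether it stands for platelet RNA, and its part in the Thbs1 values, was not tested.

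Tgfbi was a gene of the whole myeloid compartment. Its macrophage-like level was 1888 and 1746 CPM in Angptl4+/+ wounds on days 1 and 5 and 2253 and 1581 in Angptl4-/- wounds, with log2 day ratios of -0.11 (-0.14 to -0.08) and -0.51 (-0.55 to -0.47), both within 2-fold. Monocyte-like cells had 1096, 606, 1123 and 586 CPM in Angptl4+/+ wounds on days 1 and 5 and Angptl4-/- wounds on days 1 and 5, with a Tgfbi UMI in 100%, 83.3%, 100% and 94.0% of cells. Levels were 376 to 771 CPM in dendritic cell-like and 322 to 397 CPM in neutrophil-like cells.

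Vcan belonged to monocyte-like and macrophage-like cells. The macrophage-like level was 587 (571 to 603) and 184 (176 to 191) CPM in Angptl4+/+ wounds on days 1 and 5, and 775 (753 to 798) and 313 (301 to 326) in Angptl4-/- wounds. Both 5 dpw libraries lay below both 1 dpw libraries, and on each day the Angptl4-/- library was the higher one. The log2 day ratios were -1.68 (-1.75 to -1.61) and -1.31 (-1.38 to -1.24).

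Monocyte-like cells had the same order of libraries, with 452 and 60.8 CPM of Vcan in Angptl4+/+ wounds on days 1 and 5 and 534 and 153 in Angptl4-/- wounds. Their log2 day ratios were -2.90 (-3.25 to -2.56) and -1.80 (-2.02 to -1.59). Neutrophil-like cells had 2.95 to 5.12 CPM. Fibroblasts also make versican, and the 6 fibroblast markers summed to 0.223, 3.68, 0.517 and 9.14 CPM in macrophage-like cells in Angptl4+/+ wounds on days 1 and 5 and Angptl4-/- wounds on days 1 and 5. Of these markers 2, 5, 3 and 5 had UMIs in that order, with Pdgfra at 0 in each library, and their part in the Vcan values was not tested.

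F13a1 was found in both monocyte-like and macrophage-like cells, at levels within 2-fold of each other in each library. The macrophage-like level was 887 and 655 CPM in Angptl4+/+ wounds on days 1 and 5 and 795 and 544 in Angptl4-/- wounds. The monocyte-like level was 832, 339, 962 and 611 CPM in the same order. Macrophage-like over monocyte-like cells, the log2 ratios were 0.09 (0.02 to 0.17), 0.95 (0.81 to 1.09), -0.28 (-0.36 to -0.20) and -0.17 (-0.27 to -0.06), so that macrophage-like cells were the higher class in both Angptl4+/+ libraries and monocyte-like cells in both Angptl4-/- libraries. In neutrophil-like cells F13a1 stood at 1.69 to 5.19 CPM.

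F10 in macrophage-like cells stood at 515 and 274 CPM in Angptl4+/+ wounds on days 1 and 5 and at 410.0 and 299 in Angptl4-/- wounds. The 1 dpw libraries were the higher ones, with log2 day ratios of -0.91 (-0.97 to -0.85) and -0.46 (-0.54 to -0.37). Macrophage-like cells were above neutrophil-like cells by 1.58, 0.57, 1.39 and 0.48 on the log2 scale in Angptl4+/+ wounds on days 1 and 5 and Angptl4-/- wounds on days 1 and 5, but relative to the median gene of each comparison the values were 0.15, -0.39, -0.06 and -0.39, lower in 3 of the 4 libraries. Factor X in blood comes from the liver, and here an F10 UMI was seen in 83.1%, 44.9%, 80.5% and 64.2% of monocyte-like and 70.4%, 57.7%, 58.9% and 59.8% of macrophage-like cells.

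Sdc4 set macrophage-like apart from monocyte-like cells. The macrophage-like level was 528 and 281 CPM in Angptl4+/+ wounds on days 1 and 5 and 494 and 298 in Angptl4-/- wounds, with a UMI in 78.8%, 64.7%, 73.4% and 72.0% of cells. Monocyte-like cells held 6, 4, 4 and 1 Sdc4 UMIs in all. Macrophage-like over monocyte-like cells, the log2 ratios were 7.64 (6.52 to 9.09), 6.48 (5.12 to 8.35), 7.81 (6.46 to 9.69) and 8.72 (6.24 to 14.02). Dendritic cell-like cells had 129.9 to 223 CPM and a UMI in 71.4%, 57.1%, 67.1% and 61.3% of cells.

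From 1 to 5 dpw, Spp1, Thbs1 and Vcan were the genes past 2-fold in macrophage-like cells, each lower at 5 dpw, in both genotypes. In Angptl4+/+ wounds these were 3 of 8, where 4.33% of 8839 genes were past 2-fold lower, and 0 of 8 were higher, where 6.44% were. In Angptl4-/- wounds they were again 3 of 8, where 3.72% of 7886 genes were lower, and 0 of 8 were higher, where 4.43% were. The median log2 day ratio of the 8 genes was -0.91 in Angptl4+/+ and -0.64 in Angptl4-/- wounds, beside 0.15 and 0.07 for all tested genes. Relative to the median gene of Angptl4+/+ wounds, Sdc4 and F10 passed 2-fold as well, at -1.06 and -1.06. All 8 genes reached the 100 UMIs in a pair of libraries that a gene needed to be tested. The genes were chosen with earlier results of these data known, so that these counts are a description and no test of enrichment.

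The Angptl4-/- day ratios were the less stable ones. With each cell at the same weight 1 of 8 genes, Spp1, was past 2-fold lower there, with Thbs1 at -0.999, just short of 2-fold, and Vcan at -0.94, and with cells thinned to 1000 UMIs Vcan was at -0.86. Median depth in macrophage-like cells of the Angptl4-/- libraries was 5832.5 UMIs at 1 dpw and 11524.5 at 5 dpw, the widest gap between days, and its part in these values was not tested.

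Between genotypes, 0 of 8 genes passed 2-fold in macrophage-like cells in either direction on either day. At 1 dpw 0.294% of 7830 genes were past 2-fold higher in the Angptl4-/- library and 0.396% lower, and at 5 dpw 0.430% of 8838 genes were higher and 0.668% lower, so that few genes of any kind differed by this much. At 5 dpw the widest log2 ratios of Angptl4-/- over Angptl4+/+ were 0.77 (0.69 to 0.85) for Vcan, 0.74 (0.71 to 0.77) for Thbs1 and -0.49 (-0.53 to -0.44) for Spp1. At 1 dpw they were -0.44 (-0.46 to -0.42) for Spp1 and 0.40 (0.34 to 0.46) for Vcan. The median of the 8 genes was -0.09 at 1 dpw and -0.02 at 5 dpw, beside 0.02 and -0.02 for all tested genes.

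In macrophage-like cells the difference between the day ratios, Angptl4-/- minus Angptl4+/+, was 0.82 (0.79 to 0.86) for Thbs1, 0.45 (0.35 to 0.56) for F10, 0.37 (0.27 to 0.47) for Vcan and -0.40 (-0.44 to -0.35) for Tgfbi on the log2 scale. For Spp1 it was -0.05 (-0.09 to 0.00). Monocyte-like cells gave other values, with -1.61 (-1.82 to -1.40) for Spp1, -0.62 (-0.79 to -0.44) for Thbs1 and 1.09 (0.70 to 1.49) for Vcan. Thbs1 thus had opposite signs in the 2 classes, and the wide difference of Spp1 was in monocyte-like cells. An Spp1 UMI was about as common there as in NK cell/T cell-like cells, whose Spp1 level was also highest in Angptl4-/- wounds at 1 dpw. The part of RNA from other cells in the monocyte-like Spp1 values was not tested. Whether such differences exceed the spread between wounds could not be tested with 1 library per group.

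**Figure D4:**
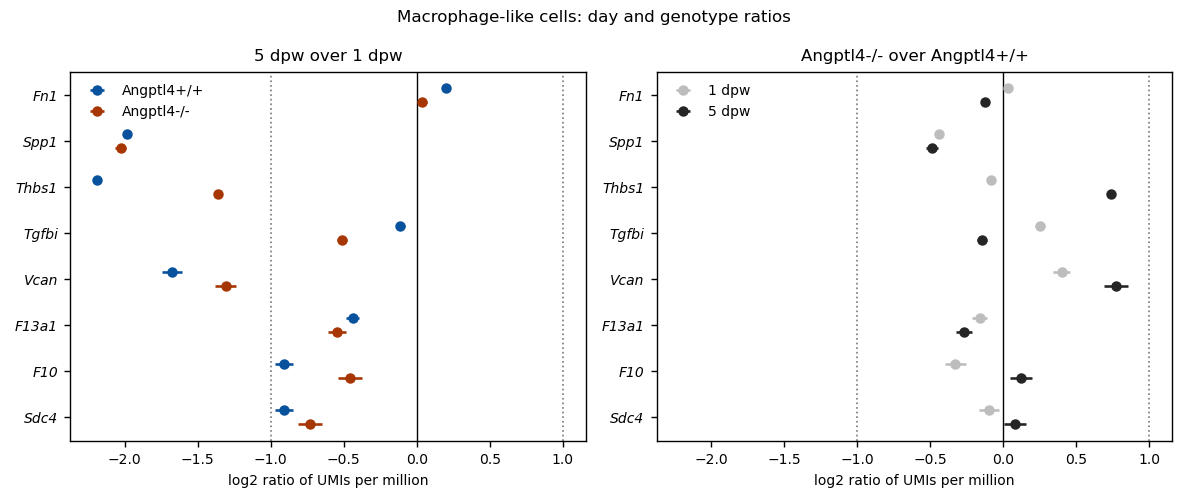
Log2 ratios of CPM in macrophage-like cells for 5 over 1 dpw and for Angptl4-/- over Angptl4+/+, with 95% intervals for counting error and lines at 2-fold. Spp1, Thbs1 and Vcan lay past the lower line in both day comparisons, and 0 of 8 genes passed a line between genotypes.

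Monocyte-like and macrophage-like cells were further divided into 8 sub-clusters, named here by their first leading gene. They were the Mt2 (1023 cells, with Ptges and Sema3c), Tppp3 (880 cells, with Ltc4s and Crip2), Dmkn (621 cells, with Gpr183 and Uck2), Gpnmb (585 cells, with Il7r and Fabp5), Ccl8 (567 cells, with Folr2 and C1qa), Ace (552 cells, with Prtn3 and Hp), Cxcl10 (260 cells, with Ifit2 and Rsad2) and Retnla (253 cells, with Lyz1 and Mgl2) sub-clusters. All cells of the Ace sub-cluster were monocyte-like. The Tppp3 sub-cluster had the lowest median depth, 2351 UMIs, the most neutrophil marker UMIs, 13742 CPM, and 8.41% of its cells were among the most doublet-like. Left out, it changed none of the 8 counts of genes past 2-fold between days and genotypes, but 8 of the ratios behind them moved and 24 stayed the same. Mt2 cells were 25.5% and 23.5% of those divided in Angptl4+/+ libraries at 1 and 5 dpw and 18.9% and 14.1% in Angptl4-/- libraries. Tppp3 cells were 19.2%, 20.2%, 20.8% and 11.1% in the same order. The part of this make-up in the ratios of the whole macrophage-like class was not tested.

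Each gene had its own place among the sub-clusters. Fn1 was highest in the Mt2, Tppp3 and Retnla sub-clusters, at 4633 to 9814 CPM over the libraries, and stood at 636 to 2575 CPM in the other 5. Spp1 was highest in the Mt2 and Gpnmb sub-clusters, at 4026 to 9437 CPM at 1 dpw and 2097 to 3781 at 5 dpw. Thbs1 was highest at 1 dpw in the Mt2 and Dmkn sub-clusters, at 6285 to 10106 CPM. The platelet marker sum was highest in the Ccl8 sub-cluster, at 3151 CPM, where Thbs1 stood at 490 to 2432 CPM. In the Dmkn sub-cluster the sum was 444 CPM, with Thbs1 at 2189 to 8599 CPM. In the Retnla sub-cluster it was 402 CPM, with Thbs1 at 384 to 1340 CPM. The Tppp3 and Gpnmb sub-clusters had sums of 2794 and 2285 CPM, with Thbs1 at 1067 to 5158 and 1977 to 5538 CPM. For the Mt2 and Cxcl10 sub-clusters the sums were 1454 and 1164 CPM, with Thbs1 at 1902 to 10106 and 709 to 4166 CPM. The Ace sub-cluster had a sum of 5.64 CPM, with Thbs1 at 464 to 928 CPM.

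Tgfbi was highest in the Dmkn sub-cluster in each library, and Vcan in 3 of the 4. Tgfbi stood there at 3199 and 3077 CPM in Angptl4+/+ wounds on days 1 and 5 and at 3824 and 2676 in Angptl4-/- wounds. Vcan stood at 1173 and 1729 CPM at 1 dpw in Angptl4+/+ and Angptl4-/- wounds, against 167 and 319 in the Ccl8 sub-cluster. At 5 dpw the Dmkn sub-cluster had 276 and 549.8 CPM, and in the Angptl4+/+ library the Mt2 sub-cluster was the highest, at 286 CPM. With the clustering resolution raised, 372 cells led by Vcan, Dmkn and Chil3 received no class name and were not counted as macrophage-like. Their scores for the macrophage and monocyte lists were 0.324 and 0.282. The Ccl8 sub-cluster, whose leading genes Folr2, C1qa and Selenop are known from resident macrophages, also had the lowest F10 level at 1 dpw, 129 and 130.0 CPM. Sdc4 stood at 0.706 to 3.18 CPM in the Ace sub-cluster and at 113 to 664 in the other 7.

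The day differences were seen inside the sub-clusters, which are parts of the same libraries and not replicates. In Angptl4+/+ wounds Vcan was lower at 5 dpw in 8 of 8 and past 2-fold in 8, Thbs1 was lower in 8 and past 2-fold in 7, and Spp1 was lower and past 2-fold in 7. The exception for Spp1 was the monocyte-like Ace sub-cluster, at 441 and 494 CPM. In Angptl4-/- wounds Spp1 was lower in 8 and past 2-fold in 6, Thbs1 in 8 and 4, and Vcan in 7 and 5. The exception for Vcan was the Gpnmb sub-cluster, at 330.1 and 365 CPM. Fn1 went both ways, higher at 5 dpw in 4 and lower in 4 sub-clusters in each genotype. Tgfbi was higher at 5 dpw in the Mt2, Gpnmb and Cxcl10 sub-clusters and lower in the other 5, in both genotypes.

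Sub-clusters of 1 library are not replicates, and the share of all genes with the same sign in each of them was not counted. At 5 dpw Vcan was higher in the Angptl4-/- library in 8 of 8 sub-clusters, by 0.39 to 2.16 on the log2 scale, and past 2-fold in 3. Thbs1 was higher there in 6 and past 2-fold in 1, the Mt2 sub-cluster, with 5299.7 against 1902 CPM. It was lower in the Ccl8 and Ace sub-clusters. Spp1 was lower in the Angptl4-/- library in 6 of 8 and past 2-fold in 3, with an interval that spanned 0 in the Mt2 sub-cluster. It was past 2-fold higher there in the Cxcl10 sub-cluster, with 1511 against 545 CPM. A UMI was seen in 31.1% of the 45 Cxcl10 cells of that library, against 34.8% of the 89 in the Angptl4+/+ library. At 1 dpw Spp1 was past 2-fold higher in the Angptl4-/- library in the Ace sub-cluster, at 900.3 against 441 CPM, and past 2-fold lower in 0. A UMI was seen in 43.0% of Ace cells of that library, against 49.7% in the Angptl4+/+ library. On that day Vcan was higher in 6 of 8 and past 2-fold in 0. Fn1 at 5 dpw was higher in the Angptl4-/- library in 3 of 8 sub-clusters and lower in 5.

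**Figure D5:**
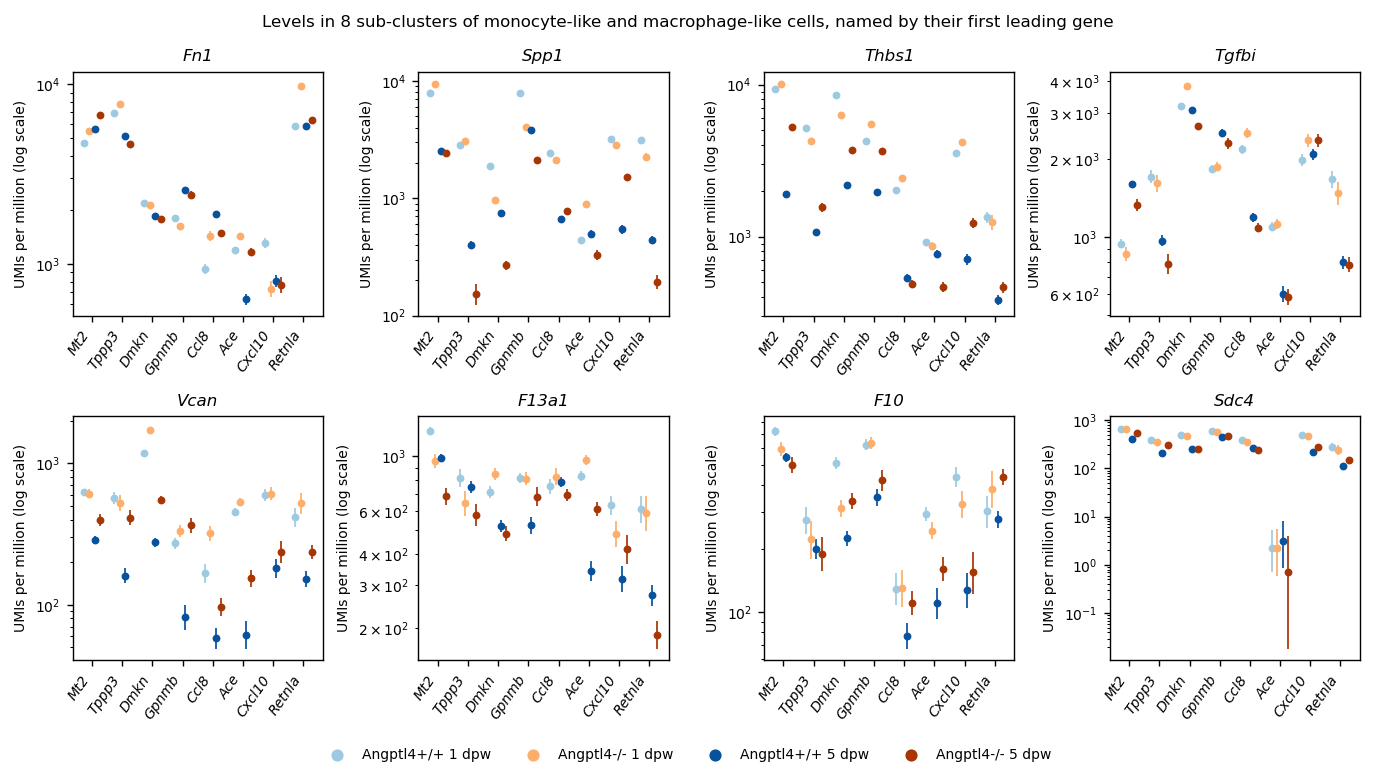
Level of each gene (CPM, log scale) in 8 sub-clusters of monocyte-like and macrophage-like cells, each named by its first leading gene, with 1 point per library and 95% Poisson intervals. Tgfbi peaked in the Dmkn sub-cluster, as did Vcan except in the Angptl4+/+ library at 5 dpw, Fn1 peaked in the Mt2, Tppp3 and Retnla sub-clusters, and Sdc4 was near 0 in the Ace sub-cluster.

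Single macrophage-like cells often held several of the genes at once. In cells thinned to 2000 UMIs the median number of the 8 genes with a UMI was 5 at 1 dpw and 4 at 5 dpw in both genotypes. Cells with 4 or more made up 88.1% and 63.7% in Angptl4+/+ wounds on days 1 and 5 and 88.1% and 60.9% in Angptl4-/- wounds. Cells under 2000 UMIs were left out, 160 and 121 in Angptl4+/+ wounds on days 1 and 5 and 164 and 27 in Angptl4-/- wounds. Monocyte-like cells had a median of 4 genes at 1 dpw and 2 at 5 dpw in both genotypes. Spearman correlations between pairs of genes over the 617 to 1425 macrophage-like cells of a library lay between -0.378 and 0.244. These were weak in sparse counts from cells of shared libraries and are given as a description.

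Spp1 molecules were the most concentrated. The tenth of thinned macrophage-like cells with the most Spp1 held 54.6% and 84.2% of its UMIs in Angptl4+/+ wounds on days 1 and 5 and 57.4% and 83.1% in Angptl4-/- wounds. For Tgfbi this share was 34.9% to 36.0%. The highest single cell had 137 and 155 Spp1 UMIs of 2000 in Angptl4+/+ wounds on days 1 and 5 and 167 and 87 in Angptl4-/- wounds, so that cells with very high Spp1 were still found at 5 dpw.

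For each gene the 3 most alike of 5213 genes were found by Pearson correlation of log2 levels over 32 profiles, the 8 sub-clusters in 4 libraries, which share libraries and depth. Thbs1 was most like Cd14, Ccr1 and Smox (r of 0.95, 0.95 and 0.94) and Sdc4 most like Sh3pxd2b, Dab2 and Mmp14 (r of 0.97, 0.96 and 0.95). Fn1 was most like Fkbp1a, Ptprs and Kcmf1 (r of 0.91, 0.88 and 0.87), F10 most like Malt1, Esd and Adssl1 (r of 0.91, 0.87 and 0.87) and Vcan most like Tarm1, Nfil3 and Itga1 (r of 0.84, 0.81 and 0.80). Spp1 was most like Ifrd1, Rnf149 and Grina (r of 0.83, 0.83 and 0.83), F13a1 most like Cd93, Snx18 and Irak3 (r of 0.80, 0.75 and 0.73) and Tgfbi most like Nt5dc2, Ms4a6d and Cux1 (r of 0.77, 0.75 and 0.73). No pair of the 8 genes was among these, and the highest r between any 2 of them was 0.69, for Thbs1 and Vcan.

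Receptors for these proteins mostly stayed within 2-fold from 1 to 5 dpw in macrophage-like cells. Of 15 receptor genes 13 could be tested, with 2 past 2-fold higher and 1 lower in Angptl4+/+ wounds and 1 higher and 1 lower in Angptl4-/- wounds. Of all tested genes 6.44% were higher and 4.33% lower in Angptl4+/+ and 4.43% and 3.72% in Angptl4-/- wounds. The receptors had median log2 ratios of -0.03 and 0.00. Sdc1 (syndecan-1, a relative of Sdc4) was the lower one, from 259 to 64.8 CPM in Angptl4+/+ and from 233 to 76.6 CPM in Angptl4-/- wounds. Itga9, an integrin subunit that binds osteopontin, was higher in both, from 4.92 to 22.1 and from 5.17 to 16.3 CPM. Itga4, a subunit of fibronectin-binding integrins, went from 43.5 to 112 CPM in Angptl4+/+ wounds. Between genotypes 0 of 12 receptor genes at 1 dpw and 0 of 13 at 5 dpw passed 2-fold in either direction. Of all tested genes 0.294% were higher and 0.396% lower at 1 dpw, and 0.430% and 0.668% at 5 dpw. With shares this small, the counts do not set the receptors apart.

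Among genes of coagulation and fibrinolysis some were past 2-fold lower at 5 dpw and 0 higher. This list too was chosen with earlier results of these data known, and its counts are a description. In Angptl4+/+ wounds 5 of the 12 tested, out of 17, were past 2-fold lower and 0 higher, against 4.33% and 6.44% of all genes, with a median log2 ratio of -0.64. In Angptl4-/- wounds 2 of 11 were lower and 0 higher, against 3.72% and 4.43% of all genes, with a median of -0.34. Serpinb2 (PAI-2, an inhibitor of plasminogen activators) had the widest ratio, from 137 to 3.14 CPM in Angptl4+/+ and from 62.9 to 12.3 CPM in Angptl4-/- wounds. Thbd (thrombomodulin, an anticoagulant receptor) went from 205 to 44.9 and from 161 to 70.2 CPM. In Angptl4+/+ wounds F3 (tissue factor, which starts coagulation) went from 8.71 to 2.38 CPM and Plaur (the urokinase receptor) from 199 to 88.7 CPM. Without integration of the libraries, Serpinb2 and F3 were among the leading genes of a neutrophil-like cluster. Neutrophil RNA in macrophage-like cells was lower at 5 dpw too, and its part in the Serpinb2 and F3 values was not tested.

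Between genotypes, 1 of 12 coagulation genes was past 2-fold lower in the Angptl4-/- library at 1 dpw, Serpinb2, at a log2 ratio of -1.12 (-1.29 to -0.95), where 0.396% of all genes were. At 5 dpw 1 of 11 was past 2-fold higher there, again Serpinb2, at 1.97 (1.42 to 2.53), where 0.430% of all genes were. Its levels on that day were low, 12.3 against 3.14 CPM. The part of neutrophil RNA in these Serpinb2 ratios was not tested. The count in the lower direction at 5 dpw is not reported here. Of 15 other matrix and cross-linking genes 7 could be tested, and 1, Lgals3 (galectin-3, a secreted lectin), was past 2-fold lower at 5 dpw in Angptl4+/+ wounds, where 4.33% of all genes were, at 6121 and 2787 CPM on days 1 and 5. In Angptl4-/- wounds 0 of 7 were, against 3.72%, and Lgals3 stood at 4651 and 3404 CPM.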

How the data were processed

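CD45+ cells of 4 mouse wound libraries were measured by droplet RNA sequencing. Per the labels, the authors processed the reads with Cell Ranger 3.1.0 on mm10, and the deposited matrices hold raw UMI counts, which were used as they stand; Seurat 3.0 is also listed. Here barcodes with at least 200 genes and at most 10% mitochondrial UMIs were kept, which were 19827 of 20069. Libraries were integrated with Seurat 5.3.0 in R 4.3.3 (2000 variable genes, 30 dimensions, resolution 0.5). The 8 genes, the pathway lists and 18 genes the study names, 72 in all, were left out of clustering. Clusters were named from marker lists by the mean difference in the share of cells with a UMI, a score that replaced a mean log2 fold after the first naming was seen; the lists were not changed. Neutrophil-like clusters led by Csf3 and Csf1 scored low. Scrublet (scanpy 1.11.5) at its automatic threshold marked almost no cells and had not worked, so that doublets stayed in and, as an alternative, the 910 cells with the highest scores in their library, which aimed at 4% of cells, were left out. The members and lists were chosen with earlier results of these data known.

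UMIs were summed per class and library with Python 3.11.15, scipy 1.17.1 and pandas 2.3.3. Levels carry exact Poisson intervals, ratios exact conditional binomial intervals and shares exact Clopper-Pearson intervals, all at 95% and for counting error only. Genes with at least 100 UMIs in the 2 libraries compared were tested against 2-fold. The ratio code was tested on simulated data. Named besides the 8 genes were up to 4 genes of a pathway list past 2-fold, the 3 genes most like each member (genes with at least 1000 UMIs, profiles of at least 20 cells, log2(CPM + 1)) and leading genes of clusters. A gene that this rule would name is not reported here. Alternatives changed the cell filter, doublets, resolution, integration, depth per cell, weight of cells, scaling, class border and gene filter; leaving out the sub-cluster rich in neutrophil genes was added after seeing the data. Protein sequences were not used here.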

Additional observations from a re-analysis of the deposited data

How the results depend on the processing

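The 6 day ratios past 2-fold in macrophage-like cells (Spp1, Thbs1 and Vcan in both genotypes) kept their sign in all 54 values under 9 alternatives, and 51 of these stayed past 2-fold. The 3 exceptions were in Angptl4-/- wounds: Vcan at -0.86 with cells thinned, and Vcan at -0.94 and Thbs1 at -0.999, just short of 2-fold, with each cell at the same weight. That weighting left 1 of 8 genes past 2-fold lower in Angptl4-/- wounds, in place of 3, and scaling to the median gene made it 5 of 8 in Angptl4+/+ wounds, in place of 3. The same scaling turned the F10 log2 ratio of macrophage-like over neutrophil-like cells in Angptl4-/- wounds at 1 dpw to -0.0612. With genes of at least 20 UMIs, which adds genes of low counts, the share of all genes past 2-fold between genotypes was 1.22% higher and 1.60% lower at 1 dpw and 1.54% and 2.16% at 5 dpw. No paired analysis was possible because each group held 1 library, and for the same reason no library could be left out. The search of protein sequences was not run.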
